A study of Mus musculus with 6 samples.

Results

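Enzymes that remove reactive oxygen species were followed through 10 genes, out of 47729 genes counted: the 6 peroxiredoxins Prdx1 to Prdx6, the superoxide dismutases Sod1 and Sod2, catalase (Cat) and thioredoxin (Txn1). The set was chosen by the reads of Prdx1, which was close to absent outside 1 group, so the Prdx1 values are given as a description and carry no test. The other 9 genes were taken in as its paralogs or partners, and the question was whether they followed Prdx1.

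RNA was measured by bulk RNA-seq of 3′ libraries from the CD144-enriched fraction of mouse muscle, that is, cells held by magnetic beads against VE-cadherin, a junction protein of endothelial cells (ECs). All mice were fed a high-fat, high-sucrose (HFHS) diet and had hind limb ischemia (HLI) surgery at day 0. Per the labels, adenovirus went into the muscle on days 1 and 4 and tissue was taken after 1 week; the methods of the study put the second injection later. WT + GFP were WT mice given Ad-GFP, KO + GFP were Leene-KO mice given the same GFP vector, and KO + LEENE were Leene-KO mice given Ad-LEENE, which carries the human long noncoding RNA. Each of the 3 groups had 2 libraries, 6 in all. Leene is deleted in every cell of the KO mice and not in ECs alone, the vector reaches whichever muscle cells it infects, and neither age nor sex nor the number of mice behind a library was given in the labels. The knocked-out gene and the LEENE transgene were not analysed here.

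Superoxide dismutases turn superoxide into hydrogen peroxide, and catalase, the peroxiredoxins and the glutathione peroxidases then reduce the peroxide to water. Most peroxiredoxins are recharged by thioredoxin, which thioredoxin reductase in turn reduces with NADPH. In ECs these enzymes are known for limiting the loss of nitric oxide to superoxide and for tuning peroxide as a signal. Many of their genes are targets of NRF2, a transcription factor that binds the antioxidant response element.

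Totals ranged from 1770992 to 5602603 reads per library, and a floor of 3 reads, which is 0.536 to 1.69 CPM (reads per 1000000 reads of the total), was taken as the least a library could show. Mitochondrially encoded genes took 50.1% to 50.9% of the reads in WT + GFP and 33.6% to 34.3% in the other libraries. Libraries of a group were close to counting noise, with a median squared difference of 1.16 to 1.25 times that noise, and libraries of different groups were 60.5 to 98.6 times apart. The file headers carry 3 facility sample numbers for the 6 libraries, 1 for each group, so the 2 libraries of a group may be technical repeats. P values then measure the spread between these libraries alone, and anything that set the 3 numbers apart cannot be told apart from the group. Of 8903 genes tested, 44.2% were at or under 3 reads in both libraries of at least 1 group. Genes used by every cell did the same, and 4 of 15 housekeeping genes were at that floor in some group. Gapdh, a glycolytic enzyme found in all cells, had 1 and 2 reads in the WT + GFP libraries, 5 and 9 in those of KO + GFP and 3 and 2 in those of KO + LEENE. Actb, the cytoplasmic actin gene, had 537 and 504 reads, then 58995 and 38293, then 298 and 341. A read count near 0 in a group is therefore given below as a count only, without saying that the enzyme was missing from those cells. The same caution holds for high counts, folds and p values, because all come from these tables and whether the tables are intact was not tested.

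Prdx1 (ENSMUSG00000028691, GRCm38 chromosome 4, 116685544 to 116700822, plus strand) encodes the main cytosolic peroxiredoxin, which takes electrons from thioredoxin. It had 4 and 5 reads in the WT + GFP libraries, 6315 and 4035 reads in those of KO + GFP and 0 reads in both KO + LEENE libraries. As CPM these are 1.05 ± 0.233 (SD, n = 2) in the WT + GFP libraries, 1120 ± 10.0 in those of KO + GFP and 0 in those of KO + LEENE. The KO + GFP libraries were high and the other 4 low, with no overlap. After TMM scaling, a correction for library composition, KO + GFP was 1514-fold above WT + GFP, and KO + LEENE was at least 1484-fold below KO + GFP with 3 reads in each KO + LEENE library as the floor (2967 with 3 reads over the group). With library totals as the only scaling the first value was 1079 and the bound with 3 reads over the group 1332. No fold is given between KO + LEENE and WT + GFP, since 3 reads in a KO + LEENE library are a higher CPM than WT + GFP had. These are the values the set was selected on.

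**Figure D1:**
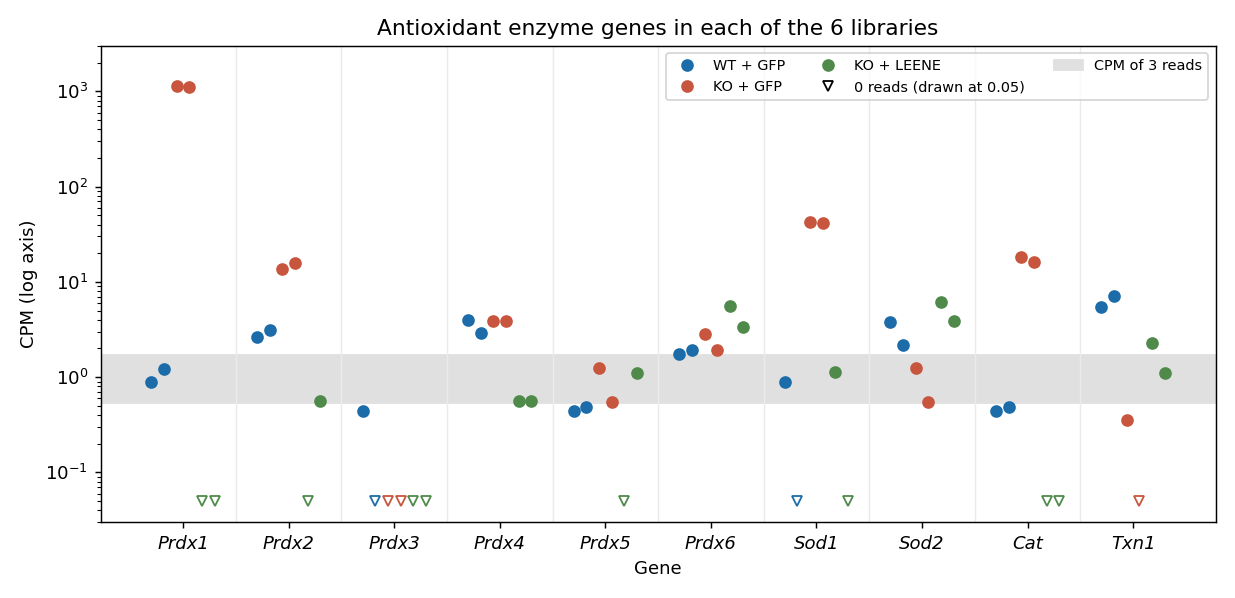
CPM of the 10 antioxidant enzyme genes (log axis) in the 6 libraries; each point is 1 library, colored by group, triangles at the bottom mark 0 reads, and the grey band is the CPM that 3 reads give across libraries. Prdx1, Sod1 and Cat stand far higher in both KO + GFP libraries than elsewhere, whereas Txn1 is highest in WT + GFP and Prdx6 and Sod2 have their highest CPM in KO + LEENE, an order that TMM scaling does not keep, since KO + LEENE then overlaps KO + GFP for Prdx6 and WT + GFP for Sod2.

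Promoter sequence was read for the antioxidant response element, because NRF2 is a known regulator of several of these genes. RefSeq promoter windows of 300 bases on GRCm38.p6 matched 9 of the 10 members, and 2 held the letters TGACNNNGC on either strand, Prdx1 and Sod1. Over all 32851 windows, 12.4% held them. In the Prdx1 window the match contains TGACTCA, which is also the site of the AP-1 factors, so both motifs overlap there. Both windows are shown on the plus strand, up to the base before the first exon in the files, with the match in capitals; it lies on the minus strand in each. The Prdx1 stretch is chr4:116685349-116685543, where the match begins at -78 from the exon, and the Sod1 stretch is chr16:90220512-90220741, where it begins at -36.
Prdx1: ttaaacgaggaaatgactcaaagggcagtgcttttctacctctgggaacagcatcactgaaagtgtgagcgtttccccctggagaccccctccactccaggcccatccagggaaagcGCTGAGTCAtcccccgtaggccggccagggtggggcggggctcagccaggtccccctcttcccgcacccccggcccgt
Sod1: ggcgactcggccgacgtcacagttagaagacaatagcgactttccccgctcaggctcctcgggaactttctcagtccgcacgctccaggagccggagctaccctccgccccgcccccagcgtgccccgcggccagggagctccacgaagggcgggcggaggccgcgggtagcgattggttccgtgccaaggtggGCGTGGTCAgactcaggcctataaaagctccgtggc
A match of letters is a description and not a binding site. Cat, like Prdx1 and Sod1 highest in KO + GFP, has no match in its window, and neither do Prdx2, Prdx3, Prdx5, Sod2 and Txn1. The Prdx4 window lies inside the gene as the files define it, so the stretch before its first exon was not read.

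Of the 5 paralogs, Prdx2 was, like Prdx1, highest in KO + GFP without overlap, Prdx4 and Prdx6 did not pass the test between KO + GFP and WT + GFP, and Prdx3 and Prdx5 had too few reads to be tested. Prdx2 (GRCm38 chromosome 8, 84969587 to 84974834, plus strand), the other cytosolic peroxiredoxin and an abundant protein of red cells, had 12 and 13 reads in the WT + GFP libraries, 77 and 57 in those of KO + GFP and 0 and 1 in those of KO + LEENE. The 3 groups did not overlap. Prdx2 in KO + GFP exceeded WT + GFP by 2.80 ± 0.298 (SE) on the log2 scale (adjusted p = 9.02e-20, edgeR quasi-likelihood test). It was lower in KO + LEENE than in KO + GFP (adjusted p = 5.59e-27), a ratio of 115 with a 95% counting interval of 20.3 to 4586 around the single KO + LEENE read. KO + LEENE was also lower than WT + GFP, by a ratio of 16.3 with an interval of 2.67 to 671 (adjusted p = 1.44e-04). Prdx2 shares exon bases with Rnaseh2a on the opposite strand, and reads were counted without strand, but Rnaseh2a itself had at most 2 reads in any library. Its processed pseudogenes Prdx2-ps1 and Prdx2-ps2 had 8 and 5 and then 15 and 13 reads in KO + GFP, and at most 2 in every other library, so reads of the parent gene and these copies may not be fully separated.

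Prdx4, the peroxiredoxin of the endoplasmic reticulum, had 18 and 12 reads in the WT + GFP libraries, 22 and 14 in those of KO + GFP and 1 in each KO + LEENE library. WT + GFP and KO + GFP overlapped and KO + LEENE lay below both. The difference between KO + GFP and WT + GFP was 0.65 ± 0.399 on the log2 scale and did not pass the test (adjusted p = 0.135). KO + LEENE was below KO + GFP by a ratio of 15.5 (interval 3.99 to 133, adjusted p = 7.01e-07) and below WT + GFP by a ratio of 9.80 (interval 2.49 to 84.6, adjusted p = 1.42e-04).

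Prdx6, the 1-Cys member that also reduces oxidized phospholipids, had 8 and 8 reads in the WT + GFP libraries, 16 and 7 in those of KO + GFP and 10 and 6 in those of KO + LEENE. WT + GFP and KO + GFP overlapped in CPM (1.76 and 1.94, then 2.86 and 1.93), and the shallower KO + LEENE libraries lay above them at 5.65 and 3.35. None of the comparisons passed the test. The log2 differences were 0.90 ± 0.512 for KO + GFP over WT + GFP (adjusted p = 0.106), -0.30 ± 0.516 for KO + LEENE over KO + GFP (0.633) and 0.60 ± 0.559 for KO + LEENE over WT + GFP (0.335). Without KO + GFP replicate 1 the second of these was 0.11 and without KO + LEENE replicate 2 it was 0.08. With library totals as the only scaling it was 0.85 (adjusted p = 0.131), and the third became 1.27 and passed (0.0332). The 95% counting interval of the KO + GFP to WT + GFP ratio ran from 0.957 to 3.83, which leaves out ratios of the size seen below for Sod1 and Cat. The copies Prdx6b and Prdx6-ps2 had at most 3 reads in any library.

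Prdx3 and Prdx5, the mitochondrial peroxiredoxin and the one shared by mitochondria, peroxisomes and cytosol, were too low to be tested. Prdx3 had 2 reads in 1 WT + GFP library and 0 in the other 5 libraries, and a difference was not detectable at this depth. Prdx5 had 2 and 2 reads in the WT + GFP libraries, 7 and 2 in those of KO + GFP and 0 and 2 in those of KO + LEENE, and the groups overlapped. Trmt112, which shares exon bases with Prdx5 on the opposite strand, had 589 and 603 reads in KO + LEENE and at most 2 in the others. Those reads did not appear under Prdx5. With Prdx1 left out, the other 5 peroxiredoxins together had 9.26 and 8.48 CPM in the WT + GFP libraries, 21.8 and 22.1 in those of KO + GFP and 6.21 and 5.58 in those of KO + LEENE. Prdx1 made up 98.1% of all peroxiredoxin reads in both KO + GFP libraries (95% exact interval 97.6% to 98.5% in the shallower one). Its share was 8.70% and 12.5% in WT + GFP, with intervals of 2.42% to 20.8% and 4.19% to 26.8%. In KO + LEENE it was 0 of 11 and 0 of 10 reads, with upper limits of 28.5% and 30.9%. These intervals, like the floors, cover counting error only.

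Among the enzymes that are not peroxiredoxins, Sod1 and Cat were, like Prdx1, highest in KO + GFP. Sod1 (chromosome 16, 90220742 to 90226322, plus strand), the copper-zinc superoxide dismutase of the cytosol, had 4 and 0 reads in the WT + GFP libraries, 240 and 151 in those of KO + GFP and 2 and 0 in those of KO + LEENE. Both KO + GFP libraries were far above the other 4, which overlapped with each other. Sod1 had enough reads to be tested only through KO + GFP, so its p values against that group only describe these reads. KO + GFP exceeded WT + GFP by 6.90 ± 0.328 on the log2 scale (adjusted p = 3.09e-82), with a counting interval of 49.9 to 475 for the ratio, and KO + LEENE was lower than KO + GFP by a ratio of 168 (interval 46.2 to 1393, adjusted p = 1.64e-65). KO + LEENE and WT + GFP, with 2 and 4 reads in all, did not pass (log2 difference -0.35 ± 1.23, adjusted p = 0.820). The sign of that last value turned with single libraries, since it was 3.36 without WT + GFP replicate 1 and 0.64 without KO + LEENE replicate 2.

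Cat (chromosome 2, 103453849 to 103485160, minus strand), the peroxisomal enzyme that splits hydrogen peroxide without thioredoxin or glutathione, had 2 and 2 reads in the WT + GFP libraries, 103 and 58 in those of KO + GFP and 0 and 0 in those of KO + LEENE. KO + GFP was again above the other 4 libraries without overlap. Cat, too, had enough reads to be tested only through KO + GFP, so its p values against that group only describe these reads. KO + GFP exceeded WT + GFP (adjusted p = 2.64e-38) by a ratio of 53.0 with a counting interval of 20.3 to 197 around the 4 WT + GFP reads, and KO + LEENE was lower than KO + GFP (adjusted p = 2.41e-33), by at least 23.1-fold with 3 reads in each library as the floor (46.2 with 3 reads over the group, and 20.7 for the latter with library totals as the only scaling). Both WT + GFP and KO + LEENE were at or under the floor, so no fold is given between them (adjusted p = 0.0861).

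Sod2, the manganese superoxide dismutase of mitochondria, was not highest in KO + GFP. It had 17 and 9 reads in the WT + GFP libraries, 7 and 2 in those of KO + GFP and 11 and 7 in those of KO + LEENE. In CPM the groups did not overlap, with 3.75 and 2.18, then 1.25 and 0.552, then 6.21 and 3.91, but after TMM scaling WT + GFP and KO + LEENE overlapped. The log2 difference was -1.12 ± 0.578 for KO + GFP over WT + GFP (adjusted p = 0.0748) and 1.20 ± 0.620 for KO + LEENE over KO + GFP (0.0760), so neither passed. KO + LEENE over WT + GFP was 0.08 ± 0.491 (0.895), and it was -0.24 without WT + GFP replicate 2 and -0.23 without KO + LEENE replicate 1. The first of the 3 values passed the test without WT + GFP replicate 2, at -1.46 (adjusted p = 0.0472). With library totals as the only scaling the first was -1.59 (0.00667) and the second 2.34 (2.06e-04), so for Sod2 the call depends on the scaling.

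Txn1 (chromosome 4, 57943373 to 57956411, minus strand), the cytosolic thioredoxin that recharges most peroxiredoxins, was highest in WT + GFP. It had 25 and 29 reads in the WT + GFP libraries, 2 and 0 in those of KO + GFP and 4 and 2 in those of KO + LEENE. Both WT + GFP libraries lay above the other 4, and in CPM KO + LEENE lay between WT + GFP and KO + GFP. KO + GFP was below WT + GFP by a ratio of 20.5 (interval 5.41 to 174, adjusted p = 2.45e-09), and KO + LEENE was below WT + GFP by 2.52 ± 0.548 on the log2 scale (adjusted p = 1.00e-05). Txn1 had enough reads to be tested only through WT + GFP, where it was high, so both differences only describe its reads. KO + LEENE over KO + GFP was 1.69 ± 1.11 and did not pass (adjusted p = 0.169); with library totals as the only scaling it was 2.78 (0.0140).

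**Figure D2:**
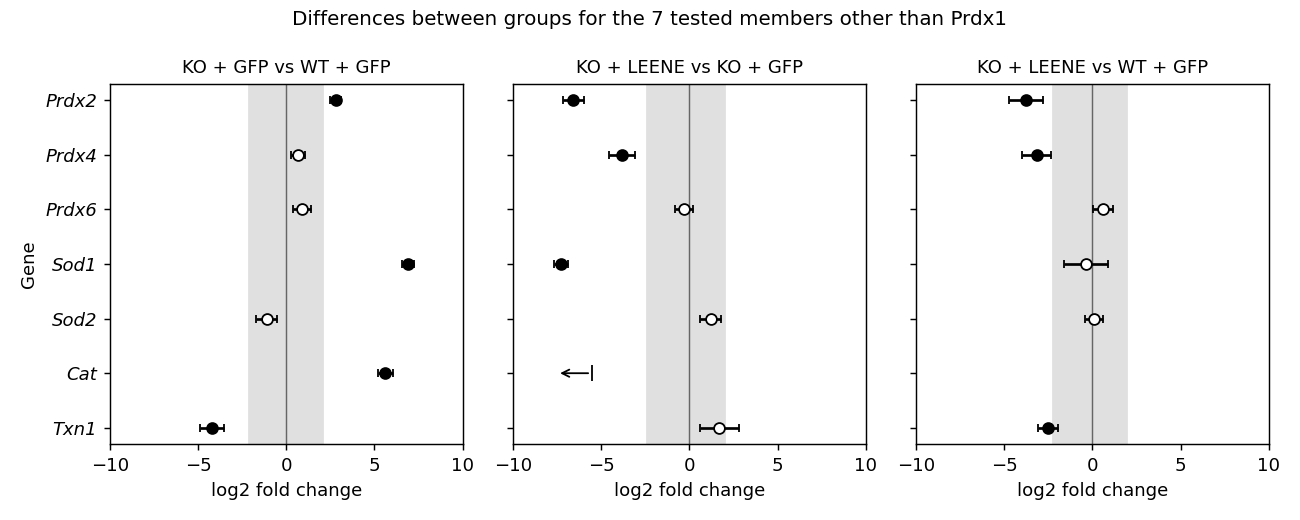
Log2 fold change ± SE from the edgeR fit (x axis) of the 7 tested genes other than Prdx1 in the 3 comparisons; filled circles passed an adjusted p of 0.05, open ones did not, the arrow for Cat starts at its bound with 3 reads over the group, its circle in the first panel rests on 4 WT + GFP reads, and the grey band holds the middle 50% of all tested genes. Sod1, Cat and Prdx2 lie right of the band in the first panel and left of it in the second, Txn1 lies left of it in the first, and Prdx6 and Sod2 stay inside it throughout.

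Counted over the 9 genes other than Prdx1, 7 passed the low-count filter. Sod1 and Cat passed it only through KO + GFP and Txn1 only through WT + GFP, the groups where they were high. Their calls against those groups therefore only describe their reads. Between KO + GFP and WT + GFP, 3 of the 7 were called higher (Prdx2, Sod1, Cat) and 1 lower (Txn1), where 34.2% of all tested genes were called higher and 35.9% lower. Between KO + LEENE and KO + GFP, 0 were called higher and 4 lower (Prdx2, Prdx4, Sod1, Cat), against 32.8% and 34.9% of all tested genes. Between KO + LEENE and WT + GFP, 0 were called higher and 3 lower (Prdx2, Prdx4, Txn1), against 33.9% and 36.9%. At an unadjusted p under 0.05 and with DESeq2 the counts of 0 were also 0. With only the 4 libraries of KO + LEENE and KO + GFP in the fit, 1 was called higher (Sod2, log2 difference 1.16, adjusted p = 0.0450) and 4 lower of 5 tested. With library totals as the only scaling the calls were 3 higher and 2 lower, 2 and 4, and 1 and 3, and over all tested genes 29.6% higher and 44.2% lower, 50.3% and 24.6%, and 43.5% and 29.1%. The first and second comparisons share the KO + GFP libraries, so a high value there enters both. About 7 genes in 10 were called in each comparison, and a call for a member is no more than most genes showed. The median log2 difference of the 7 genes was 0.90, -3.82 and -2.52 in the 3 comparisons, and over all tested genes it was -0.09, -0.01 and -0.11. With genes at 0 reads entered at their bounds the third median of the 7 was -0.35.

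A stricter count took genes whose lowest library in a group was at least 5 times the highest library elsewhere in CPM, with values under the floor raised to it; this multiple was set after the values were seen. Prdx1, Sod1 (24.6 times) and Cat (9.44 times) met it for KO + GFP, and Prdx2 (4.36 times) was just outside. That is 2 of the 7 tested genes other than Prdx1, beside 9.51% of all tested genes. No member met it for WT + GFP or KO + LEENE, where 9.49% and 16.1% of all tested genes did. Both libraries were at or under 3 reads for 3 of the 10 members in the WT + GFP group, 2 under KO + GFP and 7 under KO + LEENE. Of the 8 members tested, Prdx1 included, it was 1, 1 and 5, beside 18.1%, 22.9% and 23.6% of all tested genes. The KO + LEENE libraries were the shallowest, and 3 reads there are 1.67 to 1.69 CPM. These counts only describe the set, since Prdx1 was selected for its low reads outside KO + GFP, and Sod1 and Cat passed the filter through KO + GFP.

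The genes whose profile over the 6 libraries lay nearest to that of Prdx1 were sought among 2820 other genes of at least 20 mean CPM, a level that no other member reached. The measure was the root mean square difference of centred log2 CPM, with 2 reads added to every count. Prdx1 had 0 reads in KO + LEENE, so its value there comes from the added reads alone. The 5 nearest were Selenop (0.111), Zfp14 (0.239), Pf4 (0.286), Ptafr (0.333) and Ucp2 (0.349). Selenop, the plasma carrier of selenium, had 40 and 43 reads in the WT + GFP libraries, 50151 and 32197 in those of KO + GFP and 12 and 13 in those of KO + LEENE. Pf4, a chemokine of platelets and some macrophages, had 13 and 12, then 16152 and 10677, then 2 and 1. On the same measure the other members lay farther from Prdx1, at 2.28 for Sod1, 2.68 for Cat and 3.29 for Prdx2, and up to 5.92 for Txn1. Their reads were few, so the added 2 reads weigh more in their values. The points are 6 libraries that share 3 groups, so these distances only describe which genes had a similar profile.

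The lists around these enzymes moved in every direction. Of 80 further genes of the thioredoxin and glutathione systems, superoxide and NADPH supply, the NRF2 pathway with haem and iron handling, and superoxide sources, 41 could be tested. Between KO + GFP and WT + GFP 14 were called higher and 14 lower, between KO + LEENE and KO + GFP 15 and 12 (21 and 10 with library totals as the only scaling), and between KO + LEENE and WT + GFP 18 and 14. Over all tested genes 34.2% were called higher and 35.9% lower in the first comparison, 32.8% and 34.9% in the second, and 33.9% and 36.9% in the third. The counts of each list below stand beside the same percentages and only describe the lists. The median log2 difference of the 41 was -0.26, 0.11 and -0.41, beside -0.09, -0.01 and -0.11 for all.

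In the thioredoxin system 7 of 20 genes were tested. KO + GFP over WT + GFP gave 1 higher and 3 lower, KO + LEENE over KO + GFP 3 and 1, and KO + LEENE over WT + GFP 3 and 3. Txnrd1, the cytosolic thioredoxin reductase that reduces Txn1, had 10 and 12 reads in the WT + GFP libraries, 14 and 9 in those of KO + GFP and 677 and 686 in those of KO + LEENE. High in KO + LEENE, it had a log2 difference there of 6.09 ± 0.172 over KO + GFP (adjusted p = 2.44e-185) and 6.55 ± 0.168 over WT + GFP (1.36e-210). Msrb3, a methionine sulfoxide reductase, had 3176 and 2911 reads in the WT + GFP libraries, 76 and 31 in those of KO + GFP and 288 and 267 in those of KO + LEENE, with no overlap between groups. Glrx2, the mitochondrial glutaredoxin, had 8 and 13, then 74 and 63, then 27 and 25 reads. Its fall of 1.18 on the log2 scale from KO + GFP to KO + LEENE (adjusted p = 9.19e-06) was -0.02 and did not pass with library totals as the only scaling.

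In the glutathione system 10 of 20 genes were tested, with 5 higher and 2 lower in KO + GFP over WT + GFP, 4 and 3 in KO + LEENE over KO + GFP, and 5 and 2 in KO + LEENE over WT + GFP. Mgst3, a microsomal glutathione transferase with peroxidase activity, had its most reads in KO + GFP, like Prdx1. There were 2 and 3 reads in the WT + GFP libraries, 9705 and 6344 in those of KO + GFP and 49 and 64 in those of KO + LEENE, and the 3 groups did not overlap. Gpx1, the cytosolic glutathione peroxidase, had 6 and 2, then 152 and 114, then 115 and 126 reads. It was higher in both KO groups than in WT + GFP, by 5.40 ± 0.315 in KO + GFP (adjusted p = 5.29e-58) and 5.47 ± 0.318 in KO + LEENE (1.89e-58). KO + LEENE over KO + GFP was 0.07 ± 0.156 for Gpx1 and did not pass (0.705), and it was 1.23 and passed (3.18e-15) with library totals as the only scaling. Without KO + GFP replicate 1 it was -0.0041. Gstp1, the pi class glutathione transferase, had 6 and 9, then 19 and 6, then 235 and 236 reads, high in KO + LEENE alone.

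NADPH supply was hardly measured, with 2 of 10 genes tested. Tkt, the transketolase of the pentose phosphate pathway, had 30 and 22 reads in the WT + GFP libraries, 6 and 4 in those of KO + GFP and 6 and 5 in those of KO + LEENE, and was called lower in both KO groups than in WT + GFP. The call for KO + LEENE (log2 difference -1.61) was lost with library totals as the only scaling (-0.95) and with DESeq2 (-1.58). Nnt, the mitochondrial transhydrogenase, had 17 and 11, then 16 and 6, then 6 and 4 reads, and no comparison passed.

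In the NRF2, haem and iron list 13 of 18 genes were tested, with 6 higher and 6 lower in KO + GFP over WT + GFP, 5 and 5 in KO + LEENE over KO + GFP, and 6 and 4 in KO + LEENE over WT + GFP. Fth1, the ferritin heavy chain that stores iron, had 658 and 614 reads in the WT + GFP libraries, 74704 and 48265 in those of KO + GFP and 856 and 941 in those of KO + LEENE. Bach1, a repressor at antioxidant response elements, had 36 and 32, then 8041 and 5079, then 15 and 12 reads. Mt1, a metallothionein, had 28 and 19, then 7448 and 4742, then 10 and 13. These 3 genes were, like Prdx1, highest in KO + GFP, whereas Fth1 was also called higher in KO + LEENE than in WT + GFP (log2 difference 1.11, adjusted p = 9.26e-29). The multiple of 5 was met by 1, 4 and 3 of the 13 tested for WT + GFP, KO + GFP and KO + LEENE, beside 9.49%, 9.51% and 16.1% of all tested genes. Nfe2l2, which encodes NRF2 itself and was singled out after its values were seen, was highest in KO + LEENE, with 47 and 46 reads, then 13 and 5, then 1098 and 1172. In KO + LEENE it exceeded KO + GFP by 7.18 on the log2 scale, which only describes a gene picked by its values. The target genes in the list did not share 1 order, since Hmox1, haem oxygenase, had 13 and 9, 31 and 23, and 2 and 1 reads, and Slc7a11, the cystine importer, had 41 and 33, 5 and 9, and 221 and 195.

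Among the sources of superoxide 9 of 12 genes were tested, with 2 higher and 2 lower, 3 and 3, and 4 and 4 in the same order of comparisons. Rac1, a small GTPase that also activates NADPH oxidases, had 435 and 452 reads in the WT + GFP libraries, 11781 and 7629 in those of KO + GFP and 22 and 20 in those of KO + LEENE. Duox1, a dual oxidase that makes hydrogen peroxide, had 2 and 2, then 0 and 0, then 322 and 273 reads, and KO + LEENE exceeded KO + GFP at least 115-fold with 3 reads in each library as the floor (231 with 3 reads over the group, and 514 for the latter with library totals as the only scaling). Cybb, the catalytic subunit of the phagocyte oxidase, had 205 and 157, then 1 and 3, then 0 and 2. Each of these 3 genes was thus highest in a different group.

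**Figure D3:**
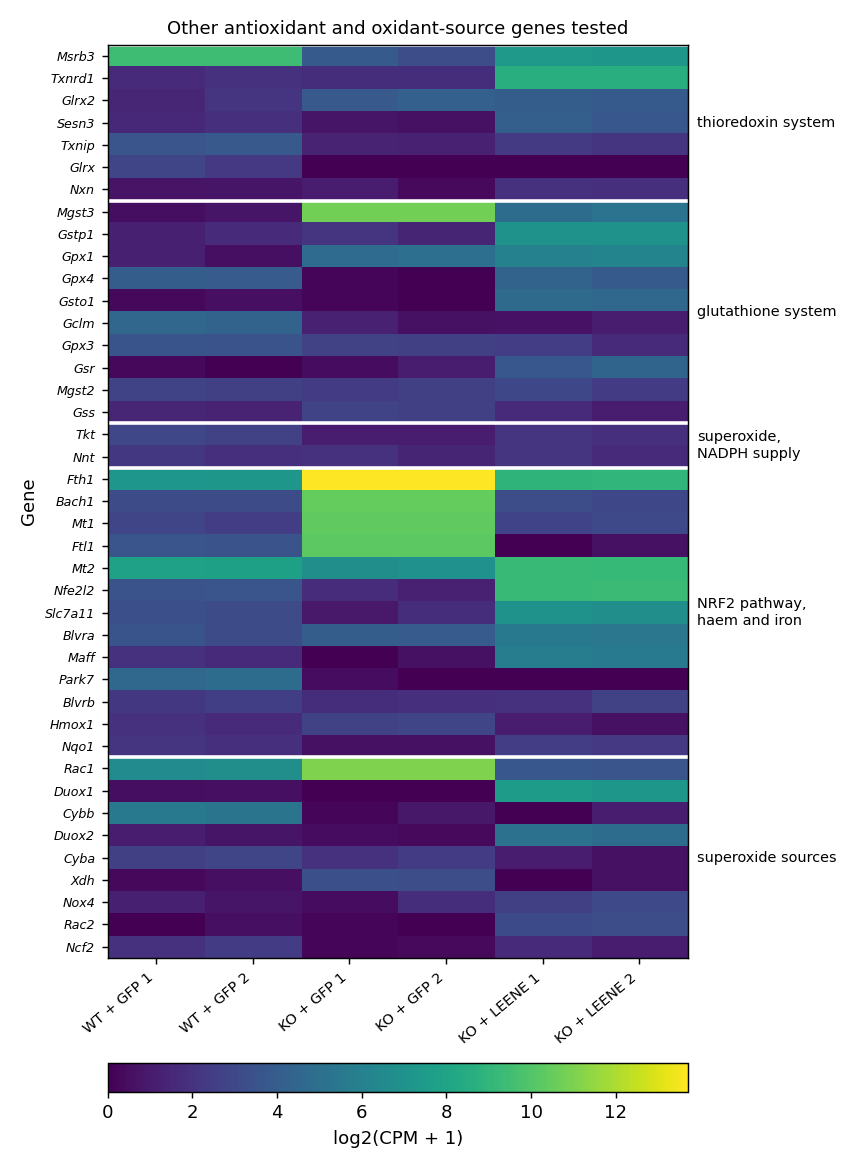
Log2(CPM + 1) of the 41 tested genes outside the 10 (rows, grouped by list and ordered by mean CPM within a list) in the 6 libraries (columns). The 2 libraries of a group look alike in every list, whereas each group has its own set of bright genes, such as Msrb3 in the WT + GFP libraries, Mgst3 and Fth1 in those of KO + GFP and Txnrd1 and Nfe2l2 in those of KO + LEENE.

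Summed markers of several cell types were also highest in KO + GFP, though not every marker was. In bulk RNA, fewer cells of a type and less RNA per cell cannot be told apart. Summed CPM of 12 macrophage markers was 30.9 to 42.2 in the WT + GFP libraries, 808 to 844 in those of KO + GFP and 29.0 to 32.2 in those of KO + LEENE, and 7, 6 and 9 of the 12 were at or under the floor. Adgre1, the F4/80 antigen that defines mouse macrophages, had 1 and 2 reads, then 1823 and 1060, then 3 and 1, and Cd68, another macrophage marker, had 0 or 1 read in every library. Of the markers above the floor in at least 1 group 2, 4 and 1 were highest in WT + GFP, KO + GFP and KO + LEENE, and C1qb, a complement gene of macrophages, had 32 and 37 reads, then 1 and 5, then 3 and 2. Summed CPM of 10 fibroblast markers was 66.4 to 72.9, then 15853 to 15945, then 121 to 125, with 3, 2 and 3 genes at the floor and 1, 5 and 2 genes highest in the 3 groups (2, 5 and 1 after TMM scaling). Dcn, Col3a1 and Col1a2 carried most of the KO + GFP sum, with means of 11312, 3371 and 1179 CPM there. Pdgfra, of the same list, had means of 35.9, 23.4 and 36.8 CPM in the 3 groups. Summed CPM of 16 EC markers was 868 to 884, then 10644 to 10690, then 363 to 366, with 2, 2 and 0 at the floor. Its genes were split, with 5, 6 and 5 highest in the 3 groups by library totals and 4, 8 and 4 after TMM scaling. Fabp4, a fatty acid binding protein of capillaries, had 33 and 20, then 43315 and 27603, then 31 and 13 reads and carried most of the KO + GFP sum, while Kdr, the VEGF receptor, had 808 and 708, then 13 and 9, then 47 and 41. Within the same list Cdh5, the gene of the bead target CD144, had 332 and 283 reads, 322 and 196, and 5 and 18, and Pecam1, another junction protein of ECs, had 211 and 175, 140 and 89, and 95 and 110. The place of Pecam1 turned with the scaling, since by library totals its mean was highest in KO + LEENE (57.5 ± 5.49 CPM, SD, n = 2, beside 44.5 ± 2.92 for WT + GFP), whereas after TMM scaling the log2 difference between these groups was -0.30 and did not pass (adjusted p = 0.0603). Vwf, the gene of von Willebrand factor, was highest in KO + LEENE with either scaling, at 184 ± 7.64 CPM beside 15.4 ± 3.55 and 26.8 ± 2.0 CPM. The part of these cell types in the values of Prdx1, Sod1, Cat and Prdx2 was not tested.

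Prdx2 and Cat are both abundant in red cells. Summed CPM of the 7 red cell markers found was 2575 to 2664 in the WT + GFP libraries, 1228 to 1272 in those of KO + GFP and 867 to 910 in those of KO + LEENE, and 1, 1 and 3 of them were at the floor. Hba-a1, an alpha globin gene, had 11432 and 10776 reads, then 6688 and 4489, then 1557 and 1490, and made up most of this sum. Other genes of the list differed from Hba-a1, which had a mean of 2566, 1216 and 855 CPM by library totals. Hbb-bt, a beta globin gene, had 76 and 67, then 64 and 50, then 26 and 33 reads, or a mean of 16.5, 12.6 and 16.6 CPM. Slc4a1, the anion exchanger of red cells, had 4 and 3, then 8 and 4, then 1 and 1 reads. The part of red cells in the values of Prdx2 and Cat was not tested. The remaining lists were low. Summed CPM of 12 skeletal muscle markers was 5.6 to 7.7, 35.3 to 35.5 and 30.7 to 37.8, with 10, 7 and 9 at the floor, Ckm at 1 read in 1 WT + GFP library and 0 in the others, and Acta1 at 2 and 1, 7 and 2, and 53 and 43 reads. Summed CPM of 10 mural markers was 4.8 to 6.4, 5.2 in both libraries, and 42.3 to 54.7, with 5, 8 and 7 at the floor. Summed CPM of 8 neutrophil markers was 3.3 to 3.9, 2.2 to 3.2 and 0.6 to 2.8, with 6, 6 and 8 at the floor. The 15 housekeeping genes summed to 1358 to 1409 CPM, 18514 to 18637 and 1990 to 2048, with 3, 7 and 5 genes highest in the 3 groups by library totals and 4, 7 and 4 after TMM scaling, by which KO + LEENE summed to less than WT + GFP. Actb and Ywhaz, a 14-3-3 protein, carried most of the KO + GFP sum, and Hsp90ab1, a chaperone, had 1713 and 1640, then 24 and 11, then 767 and 811 reads. In CPM Hsp90ab1 was highest in KO + LEENE, but after TMM scaling it was called lower there than in WT + GFP, by a log2 difference of -0.47 (adjusted p = 8.98e-11). The multiple of 5 for KO + GFP was met by 5 of the 12 that were tested, beside 9.51% of all tested genes.

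**Figure D4:**
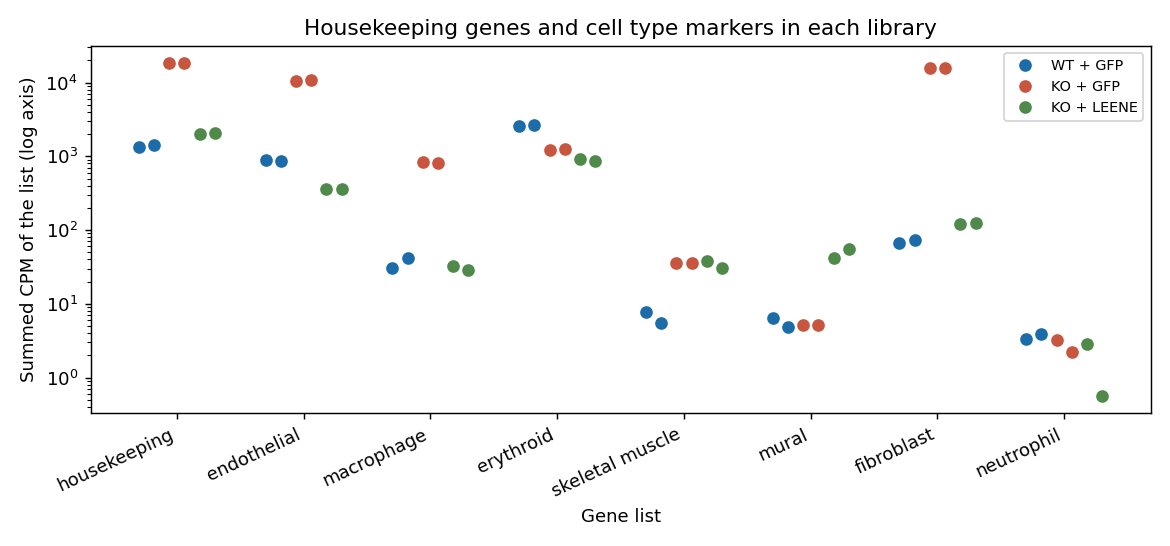
Summed CPM (log axis) of the housekeeping list and of 7 cell type marker lists in the 6 libraries; each point is 1 library, colored by group. The housekeeping, endothelial, macrophage and fibroblast sums are highest in both KO + GFP libraries, and the erythroid sum is highest in WT + GFP.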

How the data were processed

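The values are raw read counts per gene as the authors deposited them, 1 table per library. Per the file headers, featureCounts (Subread 2.0.0) counted uniquely aligned reads over exons of Ensembl release 84 on GRCm38 without strand; the submitters' processing notes name mm10, STAR 2.5.4b and bcl2fastq 2.18. No collapsing of molecular identifiers is named, so reads copied from 1 molecule count separately, and reads shared with gene copies are not fully separable. Gene names came from GENCODE vM39 by identifier (43465 of 47729).

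Groups were taken from the sample titles. Differences between groups come from edgeR 4.0.16 (glmQLFit and glmQLFTest, R 4.3.3) on all 6 libraries with TMM factors (0.660 to 1.52) and filterByExpr (minimum count 10, minimum total 15), and p values were adjusted over all 8903 genes within a comparison (Benjamini-Hochberg, threshold 0.05). A fold ratio compares summed reads over effective library sizes, with an exact 95% interval. The low-count filter can be passed through the reads of a single group. A permutation of 2 against 2 libraries cannot go below p = 0.333. Alternatives included DESeq2 1.42.0, other scalings and filters, thinning and leaving out libraries. CPM use library totals.

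The members and all lists were chosen with earlier results of these data known. Named are all 10 members, genes whose symbol begins with Prdx, the 3 tested genes of highest mean CPM in each pathway list, the 5 genes nearest to Prdx1, defining markers and genes overlapping a member. Gapdh, Actb, Cd68, C1qb, Dcn, Col3a1, Col1a2, Pdgfra, Fabp4, Kdr, Vwf, Ywhaz, Hsp90ab1, Hbb-bt, Slc4a1, Nfe2l2, Hmox1 and Slc7a11 were added after their values were seen. Protein sequences were not used here.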

Additional observations from a re-analysis of the deposited data

How the results depend on the processing

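The number of members called kept within 1.5 times of its value under every alternative that gave one, except that between KO + LEENE and WT + GFP 1 gene was called with only the 4 libraries compared, which left 2 members to test. A minimum of 10 reads in every library left no member to test. Of the other antioxidant genes it left 7 to test, where the main fit tested 41, and 7, 7 and 5 were called in the 3 comparisons. Leaving out each library in turn gave 4 to 5, 4 and 3 members called. The titles number the libraries, but same-numbered libraries did not deviate together (correlations 0.0306, 0.0138 and 0.0192), so the numbers are not a pairing; with the replicate block 4, 4 and 3 members and 27, 26 and 32 other genes were called. Of the fold changes of members and pathway genes given above, 4 that did not pass the test turned sign. Pecam1 and Hsp90ab1 between KO + LEENE and WT + GFP also turned in CPM by library totals, as described above, and are outside this count. For Prdx6 between KO + LEENE and KO + GFP the log2 value was 0.85 with library totals as the only scaling and -0.67 to 0.11 with a library left out. For Sod1 between KO + LEENE and WT + GFP it was 0.27 with library totals, 2.78 with reads thinned to the smallest total and -3.84 to 3.36 with a library left out. For Sod2 between the same groups it was -0.24 to 0.51 with a library left out, and for Gpx1 between KO + LEENE and KO + GFP -0.0041 to 0.17. The bounds with 3 reads in each library as the floor and the counts of marker genes after TMM scaling were chosen after seeing the data. The cause of the turned signs was not tested. Library totals as the only scaling moved the median of all genes from -0.09, -0.01 and -0.11 to -0.57, 1.07 and 0.50. With a floor of 10 reads, 6, 4 and 9 of the 10 members were at or under it in WT + GFP, KO + GFP and KO + LEENE, so most of these genes were measured by few reads. DESeq2 called 5127, 4983 and 4982 genes in all, beside 6239, 6035 and 6295 with edgeR.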
